A study of Mus musculus with 36 samples.

Results

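The genes described here encode the sensors of the unfolded protein response and the transcription factors that these sensors or their relatives release: Ern1, Eif2ak3, Atf6, Atf6b, Xbp1, Creb3, Creb3l2 and Creb3l3. They were taken by symbol, 8 of the 38283 genes of the count table, and all 8 had enough reads to be among the 13945 genes tested. Each was followed in the livers of male mice aged 16 weeks, with 6 mice in each of 6 groups. The mice were wild-type or carried the Y657* truncation of Pik3r1, the gene for the regulatory subunits of phosphoinositide 3-kinase, on 1 allele (WT/Y657* mice). All were on the C57Bl/6J background and ate chow. Fed mice were taken from ad libitum feeding, fasted mice after 16 h without food, and refed mice after 6 h of chow that followed such a fast. The truncation was a germline knock-in, so every tissue carried it, and an effect on liver RNA need not start in the liver.

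The unfolded protein response matches the folding capacity of the endoplasmic reticulum to the load of secreted and membrane proteins, which is high in hepatocytes. IRE1 (Ern1) is a kinase and RNase that cuts Xbp1 mRNA, PERK (Eif2ak3) phosphorylates eIF2 and so slows translation, and ATF6 and its paralogue ATF6B travel to the Golgi, where proteases release their cytosolic part as a transcription factor. CREB3, CREB3L2 and CREB3L3 are released by the same proteolysis, and CREB3L3, also called CREBH, is a liver factor for genes of fasting and lipoprotein metabolism. Cutting, phosphorylation and proteolysis are not seen in the gene-level counts used here, which give only how much transcript was present.

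Libraries held 8839488 to 19542775 counts with a median of 13596665.5, and the lowest count of any member in any mouse was 81, for Atf6b. Levels are given as CPM, which sets every library to the same total after TMM scaling. Counts of Pik3r1 sum both alleles and so cannot check the genotype labels; Pik3r1 was at 135 ± 14.1 CPM in fed wild-type and 139 ± 25.4 CPM in fed WT/Y657* mice (mean ± SD, n = 6 each). Hepatocyte markers (6 of 6 listed were tested) summed to between 52100 and 93295 CPM in every mouse, and the summed markers of neutrophils lay between 0.286 and 28.3 CPM. The pair of mice of a group that were most alike still differed by 6.59 times the sampling noise (chi-square per degree of freedom, 90 pairs), so no library was counted as a copy of another. Because liver tissue was sequenced whole, fewer cells of a type and less RNA per cell cannot be told apart. Mice are named as in the labels (ALC for fed, ONF for fasted and RF6 for refed, then WT or MT for the genotype, then a number). What the number marks is not given, and no fasted or refed mouse had a number within the range of the fed mice. Feeding state and mouse number therefore cannot be told apart in any comparison with fed mice. Among mice numbered above the fed mice, fasted and refed mice did not share a range of numbers either.

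More of these transcripts passed the test between feeding states than between genotypes. A gene is said to rise or fall where its adjusted p was under 0.05 (edgeR's quasi-likelihood test, two-sided, Benjamini-Hochberg over all genes tested). On fasting, 6 members fell and 2 rose in wild-type mice, where 32% of all genes changed (17.5% fell and 14.5% rose), and 5 fell and 2 rose in WT/Y657* mice, where 32.9% changed (17.7% fell and 15.2% rose). In refed against fed mice, 1 member was higher and 4 lower in wild-type mice (27.5% of all genes changed, 13.2% higher and 14.3% lower), and 2 were higher and 2 lower in WT/Y657* mice (26.1%, 13% higher and 13.1% lower). On refeeding, 3 rose and 1 fell in wild-type mice (30.2% of all genes changed, 16.5% rose and 13.7% fell), and 4 rose and 1 fell in WT/Y657* mice (31.3%, 17.1% and 14.2%). Between the genotypes, 1 member differed in the fed state (2.37% of all genes, 1.15% lower), 0 in the fasted state (13.1%) and 0 in the refed state (0.0287%). The median log2 change over the 8 members on fasting was -0.70 for wild-type and -0.45 for WT/Y657* mice, against 0.01 and -0.01 over all genes tested. Comparisons within a genotype share mice with each other, and both fasting comparisons share their fed mice with the fed comparison of genotypes.

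**Figure D1:**
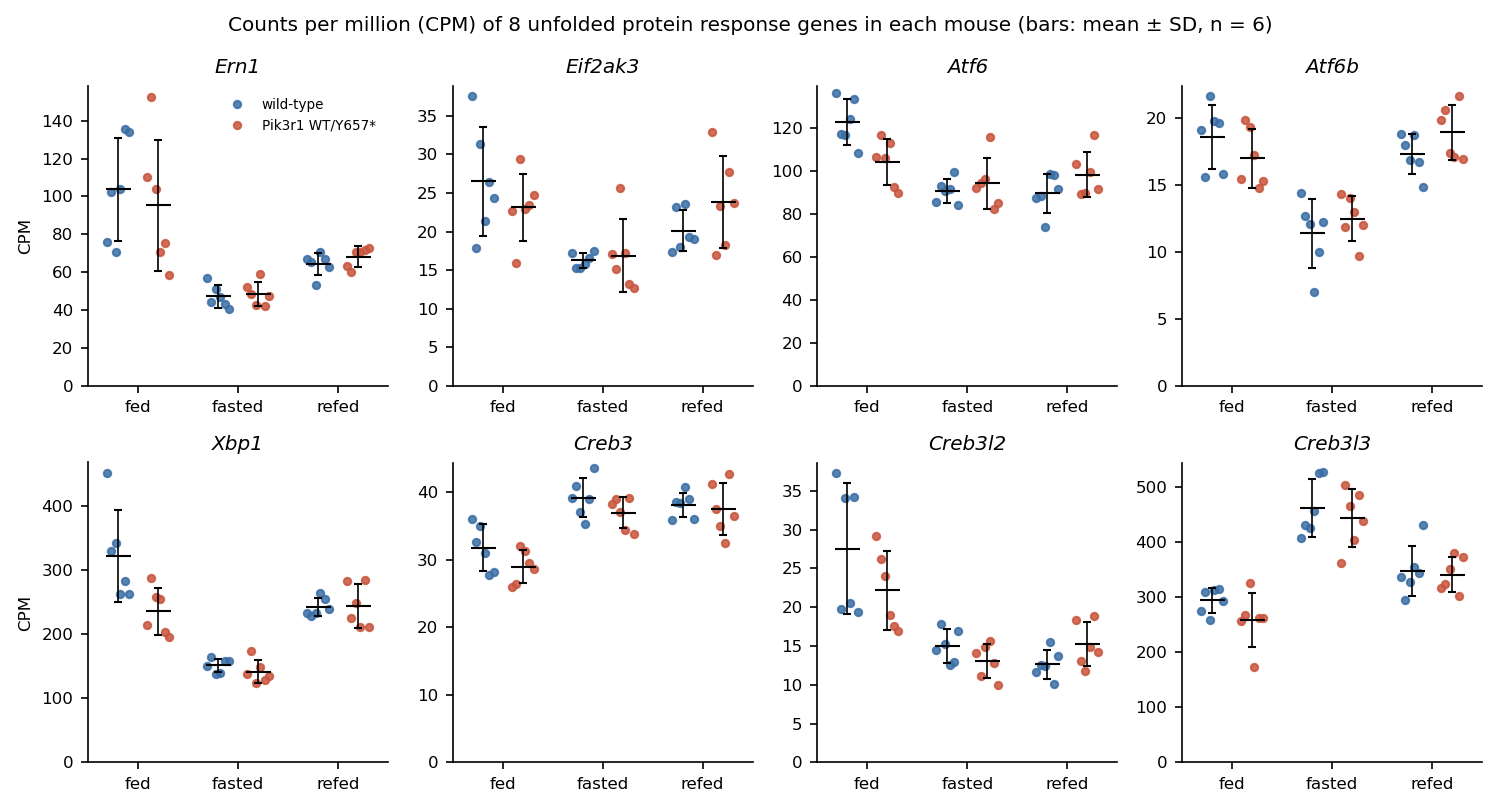
Level of each of the 8 genes in CPM (y axis, from 0) in every mouse, by feeding state (x axis) and genotype (blue, wild-type, and red, WT/Y657*), with bars for mean ± SD (n = 6 mice per group). Xbp1, Ern1 and Atf6b dropped with fasting and rose with refeeding, Creb3l2 stayed low in refed mice, and Creb3l3 moved the opposite way with its highest level in fasted mice.

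Ern1 encodes IRE1, the sensor conserved from yeast to mammals. The gene spans chr11:106394650-106487852 (minus strand) in the GENCODE annotation of GRCm38, the build of all positions given here. In wild-type mice its level ran from 70.9 to 135 CPM (median 103) when fed, from 40.6 to 57.0 (median 45.8) when fasted, and from 53.2 to 70.4 (median 66.1) when refed. In WT/Y657* mice it ran from 58.4 to 153 CPM (median 89.9), from 42.1 to 58.9 (median 47.9), and from 60.0 to 73.0 (median 70.8). All 6 fasted wild-type mice lay below every fed one, and so did 5 of 6 in WT/Y657* mice. The log2 change on fasting was -1.13 in wild-type mice (SE 0.17, adjusted p = 2.28e-06), and -0.97 in WT/Y657* mice (SE 0.17, adjusted p = 2.51e-05). Refeeding brought back part of it, with log2 changes of 0.44 (SE 0.17, adjusted p = 0.0396) and 0.49 (SE 0.17, adjusted p = 0.0220). Refed mice stayed below fed ones, at -0.69 (SE 0.16, adjusted p = 0.00189) in wild-type and -0.48 (SE 0.16, adjusted p = 0.0284) in WT/Y657* mice. The wild-type refeeding call was lost when any of ONF_WT_824, ONF_WT_918, ONF_WT_919, ONF_WT_920, RF6_WT_815, RF6_WT_816, RF6_WT_896, RF6_WT_900 and RF6_WT_901 was left out (log2 change of 0.40 to 0.44, adjusted p = 0.0561 to 0.0852 by edgeR). The call of refed against fed WT/Y657* mice was lost without ALC_MT_857, ALC_MT_858, ALC_MT_859, RF6_MT_810 or RF6_MT_814 (-0.30 to -0.46, adjusted p = 0.0546 to 0.149 by edgeR).

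Fed Ern1 levels split by mouse number. The run of 5 fed mice from ALC_WT_856 to ALC_WT_860, 2 wild-type and 3 WT/Y657*, was at 104.2 to 153 CPM (mean 127), and the other 7 fed mice at 58.4 to 103.8 CPM (mean 79.7), so these 5 held the 5 highest values. None of the other members had all of its 5 highest fed values in these mice, and for Xbp1 they held 2 of 5. The split is described as it was seen and was not tested. Within these 5 mice the genotypes differed in Ern1 by -0.16 on the log2 scale, as in all fed mice (-0.15).

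**Figure D2:**
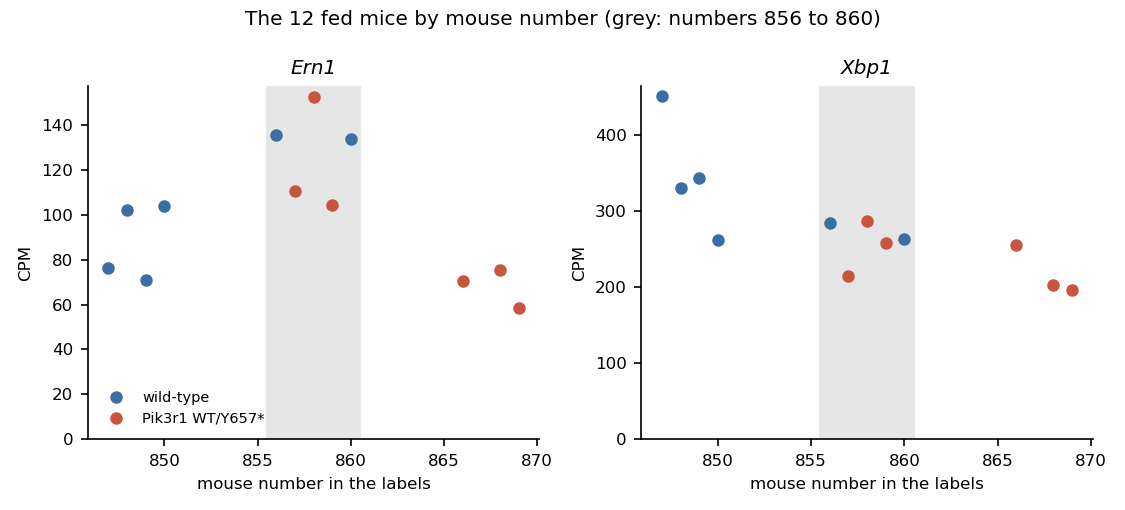
Ern1 and Xbp1 in CPM (y axes, from 0) in the 12 fed mice against the mouse number in the labels (x axis), with wild-type mice in blue, WT/Y657* mice in red and the run of 5 neighbouring numbers that holds both genotypes shaded. Ern1 was highest in the shaded mice of both genotypes, while the highest Xbp1 values, up to 452 CPM, were in wild-type mice numbered below them.

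Eif2ak3 encodes PERK. The gene spans chr6:70844515-70905245 (plus strand), and 485 of its exon bases are shared with the gene model Gm43292 on the opposite strand. Wild-type mice held 17.8 to 37.6 CPM (median 25.4) when fed, 15.2 to 17.5 (median 16.2) when fasted and 17.4 to 23.6 (median 19.2) when refed. In WT/Y657* mice the levels were 15.9 to 29.4 CPM (median 23.2), 12.7 to 25.7 (median 16.1) and 16.9 to 32.95 (median 23.5). The fasted and fed groups were apart in wild-type mice and overlapped in WT/Y657* mice, where 3 of 6 fasted mice lay below the fed range. Eif2ak3 fell on fasting, with log2 changes of -0.70 (SE 0.17, adjusted p = 0.00135) in wild-type and -0.46 (SE 0.17, adjusted p = 0.0324) in WT/Y657* mice. It rose on refeeding in WT/Y657* mice, by 0.50 on the log2 scale (SE 0.17, adjusted p = 0.0213), and the wild-type change was 0.30 (SE 0.17, adjusted p = 0.176). Both WT/Y657* calls depended on single mice. The fasting call was lost without ALC_MT_859, ALC_MT_869, ONF_MT_806, ONF_MT_826, ONF_MT_922 or ONF_MT_923 (-0.38 to -0.46, adjusted p = 0.0503 to 0.0940 by edgeR), and the refeeding call without ONF_MT_922, ONF_MT_923, RF6_MT_810 or RF6_MT_898 (0.38 to 0.45, adjusted p = 0.0503 to 0.0850 by edgeR). Wild-type refed mice were at -0.40 against fed mice (adjusted p = 0.0691), which passed the test without ALC_WT_848 or ALC_WT_850 (-0.49 and -0.45, adjusted p = 0.0258 and 0.0496 by edgeR).

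Atf6 encodes the founding member of the proteolysed sensors. The gene spans chr1:170704674-170867771 (minus strand). Wild-type levels were 108 to 136 CPM (median 121) when fed, 83.9 to 99.4 (median 90.9) when fasted and 74.0 to 98.6 (median 89.9) when refed. WT/Y657* levels were 89.8 to 116 CPM (median 106), 82.0 to 115 (median 93.1) and 89.1 to 116 (median 95.4). In wild-type mice every fasted and every refed mouse lay below every fed one, whereas the 3 groups of WT/Y657* mice overlapped. Atf6 fell on fasting, at -0.44 (SE 0.08, adjusted p = 6.64e-05) and was at -0.45 in refed against fed wild-type mice (SE 0.08, adjusted p = 7.35e-05). The same differences in WT/Y657* mice were -0.14 (SE 0.08, adjusted p = 0.187) and -0.08 (SE 0.08, adjusted p = 0.503). The fasting one passed the test without ONF_MT_921 (-0.21, adjusted p = 0.0417 by edgeR). The test of the difference between genotypes did not pass for the fasting response (0.29, 95% interval 0.06 to 0.53, adjusted p = 0.142) or for refed against fed mice (0.37, 0.13 to 0.61, adjusted p = 0.185), although both had an unadjusted p under 0.05 (0.0154 and 0.00282, edgeR over n = 36 mice).

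Atf6b, the paralogue of Atf6, spans chr17:34647146-34655074 (plus strand). Its wild-type levels were 15.6 to 21.7 CPM (median 19.4) when fed, 7.01 to 14.5 (median 12.2) when fasted and 14.9 to 18.8 (median 17.5) when refed. In WT/Y657* mice they were 14.8 to 19.9 CPM (median 16.4), 9.75 to 14.4 (median 12.5) and 16.97 to 21.7 (median 18.7). The fasted mice were separate from both the fed and the refed mice in either genotype. Atf6b fell on fasting, with log2 changes of -0.70 (SE 0.12, adjusted p = 1.58e-05) in wild-type and -0.44 (SE 0.12, adjusted p = 0.00389) in WT/Y657* mice. It rose on refeeding by 0.60 in both (SE 0.12, adjusted p = 0.000157 and 0.000143). Refed and fed mice differed by -0.10 (95% interval -0.34 to 0.14) in wild-type and 0.16 (-0.08 to 0.39) in WT/Y657* mice. Its paralogue Atf6 was at -0.01 in refed against fasted wild-type mice (95% interval -0.18 to 0.15), and the difference between the paralogues was not tested.

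Xbp1 encodes the factor made after IRE1 cuts its mRNA, and the gene spans chr11:5520659-5525893 (plus strand). The stretch that IRE1 removes is shown because its loss shifts the reading frame without changing the gene-level count. In the annotated transcript Xbp1-201, 3 places match CNGCAGC, the letters around an IRE1 cut, and 1 pair of them stands 26 bases apart. These 26 bases lie at chr11:5524279-5524304 (GRCm38, plus strand) within the coding part of exon 4 of 5, and are printed in capitals between 15 bases on each side.
Xbp1: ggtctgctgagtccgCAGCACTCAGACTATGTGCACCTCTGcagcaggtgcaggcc
Reads of the cut and the uncut form count alike in the values that follow.

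In wild-type mice Xbp1 was at 263 to 452 CPM (median 307) when fed, 139 to 164 (median 154) when fasted and 229 to 265 (median 237) when refed. In WT/Y657* mice it was at 197 to 287 CPM (median 235), 124 to 174 (median 137) and 211 to 285 (median 238). Fasted mice lay below all fed and all refed mice of their genotype. Xbp1 fell on fasting, with log2 changes of -1.09 (SE 0.11, adjusted p = 6.19e-10) in wild-type and -0.74 (SE 0.11, adjusted p = 1.81e-06) in WT/Y657* mice. It rose on refeeding by 0.68 (SE 0.11, adjusted p = 8.54e-06) and 0.79 (SE 0.11, adjusted p = 6.95e-07). After refeeding Xbp1 was still below the fed level in wild-type mice (-0.41, SE 0.11, adjusted p = 0.00442), and in WT/Y657* mice refed and fed mice differed by 0.05 (95% interval -0.17 to 0.27). The genotypes' fasting responses differed by 0.35 (95% interval 0.04 to 0.67, adjusted p = 0.195), and their refed against fed differences by 0.46 (0.14 to 0.77, adjusted p = 0.233), so neither passed the test over all genes.

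**Figure D3:**
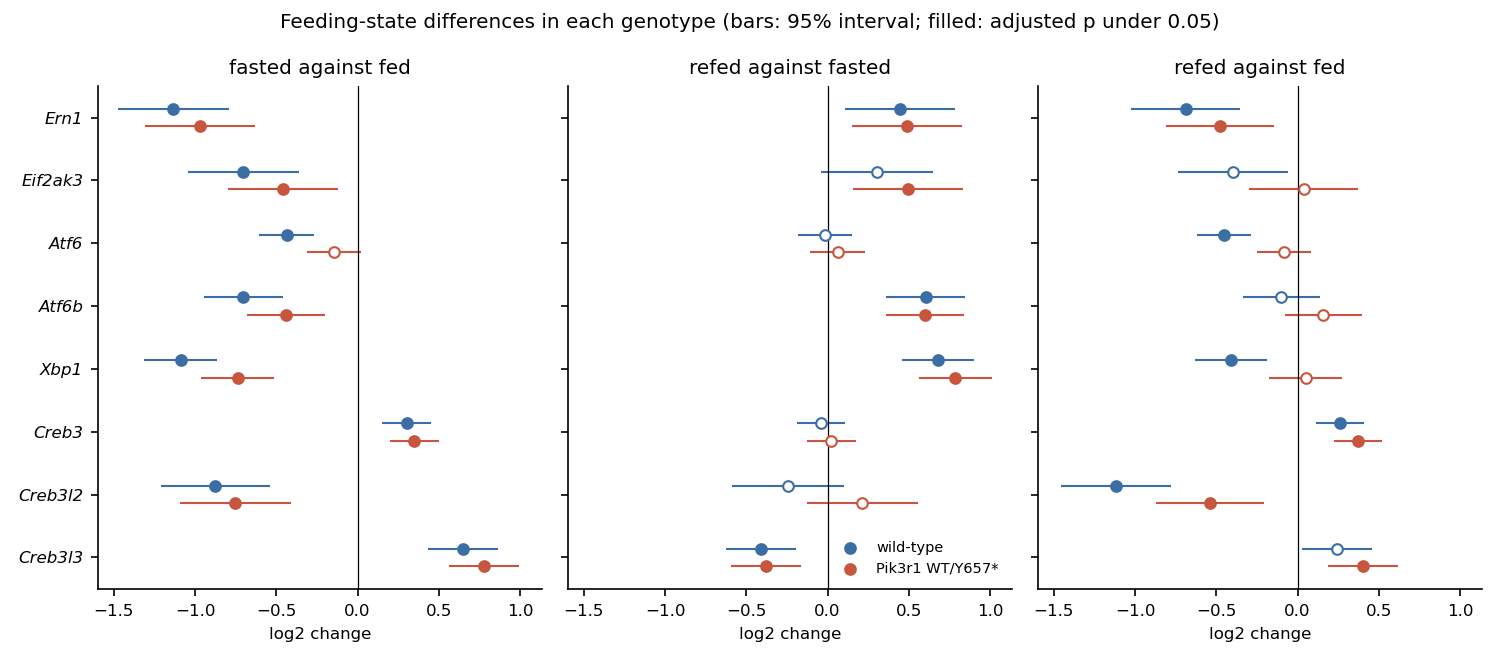
Log2 change (x axes) of each gene between feeding states in wild-type (blue) and WT/Y657* mice (red), with bars for the 95% interval and filled points where the adjusted p was under 0.05. On fasting wild-type mice had Ern1 at -1.13 and Xbp1 at -1.09, WT/Y657* mice had them at -0.97 and -0.74, and Creb3 and Creb3l3 lay above 0 in both genotypes. Creb3l2 showed no call on refeeding.

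The factors of the CREB3 family did not move as 1 group. Creb3, a widely expressed factor, spans chr4:43562332-43567060 (plus strand), where 133 of its exon bases are shared with Gba2 and 360 with Tln1, both on the opposite strand. Whether the counting used strand is not given in the sources used here, so its values may hold reads of these neighbours. Wild-type levels were 27.8 to 36.1 CPM (median 31.8) when fed, 35.3 to 43.5 (median 39.1) when fasted and 35.9 to 40.7 (median 38.4) when refed. WT/Y657* levels were 25.97 to 32.1 CPM (median 29.1), 33.8 to 39.2 (median 37.7) and 32.5 to 42.7 (median 37.0). In wild-type mice 5 of 6 fasted mice lay above the fed range, and in WT/Y657* mice all 6 did. Creb3 rose on fasting by 0.30 (SE 0.07, adjusted p = 0.00149) and 0.35 (SE 0.07, adjusted p = 0.00029), and refed mice remained above fed ones by 0.26 (SE 0.07, adjusted p = 0.00662) and 0.37 (SE 0.07, adjusted p = 0.000198). Its change on refeeding was -0.04 in wild-type mice (95% interval -0.19 to 0.11) and 0.02 in WT/Y657* mice (-0.13 to 0.17).

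Creb3l2, a factor known for collagen secretion in cartilage, spans chr6:37327255-37442146 (minus strand). Fed wild-type mice fell into a higher and a lower set, 3 at 34.1 to 37.3 CPM and 3 at 19.3 to 20.6, with no values between. Fasted wild-type mice were at 12.5 to 17.8 CPM (median 14.8) and refed ones at 10.04 to 15.5 (median 12.4). In WT/Y657* mice the levels were 16.9 to 29.2 CPM (median 21.5) fed, 10.03 to 15.7 (median 13.5) fasted and 11.8 to 18.9 (median 14.6) refed. Every fasted mouse lay below every fed mouse of its genotype. Creb3l2 fell on fasting, with log2 changes of -0.88 (SE 0.16, adjusted p = 7.92e-05) and -0.75 (SE 0.17, adjusted p = 0.000576). On refeeding it changed by -0.24 (95% interval -0.59 to 0.10) in wild-type and 0.21 (-0.13 to 0.56) in WT/Y657* mice, and neither passed the test. Refed mice stayed below fed ones, at -1.12 (SE 0.17, adjusted p = 4.77e-06) and -0.54 (SE 0.16, adjusted p = 0.0135), the latter with adjusted p = 0.0511 (-0.44) by edgeR without ALC_MT_857.

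Creb3l3, the gene of CREBH, spans chr10:81084324-81098874 (minus strand). Its changes on fasting and refeeding were opposite in sign to those of Xbp1. Wild-type levels were 259 to 315 CPM (median 301) when fed, 407 to 527 (median 444) when fasted and 296 to 431 (median 340) when refed. WT/Y657* levels were 173 to 327 CPM (median 262), 363 to 503.7 (median 452) and 302 to 379 (median 338). Fasted mice lay above all fed mice in both genotypes and overlapped the refed mice. Creb3l3 rose on fasting by 0.65 (SE 0.11, adjusted p = 6.53e-06) in wild-type and 0.78 (SE 0.11, adjusted p = 2.92e-07) in WT/Y657* mice. It fell on refeeding, with log2 changes of -0.41 (SE 0.10, adjusted p = 0.00274) and -0.38 (SE 0.10, adjusted p = 0.00513). Refed WT/Y657* mice remained above fed ones by 0.40 (SE 0.10, adjusted p = 0.00405), and the wild-type difference was 0.24 (95% interval 0.03 to 0.46, adjusted p = 0.0803).

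The refeeding responses could also be read within the 2 series of mouse numbers, those below and those above the fed mice. Each series held 3 fasted and 3 refed mice of each genotype. In the higher series the refed mice and the fasted mice formed separate runs of close numbers. Feeding state and run therefore cannot be told apart in that series. In the lower series each run held fasted and refed mice, but the later run held no refed WT/Y657* mouse. Within these series Xbp1 rose by 0.62 to 0.80 on the log2 scale, Atf6b by 0.45 to 0.81 and Ern1 by 0.28 to 0.61, and Creb3l3 changed by -0.34 to -0.42. Each of these 4 genes moved the same way in both series and both genotypes. Eif2ak3 changed by 0.28 to 0.68.

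Levels can be compared between genes only per length. Per kb of exon, Xbp1 at 99.4 ± 22.1 CPM and Creb3l3 at 97.6 ± 7.51 stood highest in fed wild-type mice (mean ± SD, n = 6). Creb3 (13.4 ± 1.45), Atf6 (13.3 ± 1.16) and Ern1 (12.7 ± 3.35) followed. Atf6b (6.75 ± 0.872), Eif2ak3 (4.39 ± 1.18) and Creb3l2 (3.78 ± 1.16) were lowest. Within each of these sets the mice of neighbouring genes overlapped. The step from Creb3l3 down to Creb3, and that from Ern1 to Atf6b, had no overlap. In fasted wild-type mice Creb3l3 (153 ± 17.2 CPM per kb) stood apart from Xbp1 (46.7 ± 3.22), and the order of the other members was the same as in fed mice.

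Between genotypes, in the fed state, all 8 had a negative log2 difference (WT/Y657* minus wild-type), with a median of -0.19 against 0.01 over all genes tested, and 1 passed the test. When runs of close mouse numbers entered the fit as a covariate, Atf6b and Creb3 were at 0.05 and 0.01. That fit rests on the only run with both genotypes, 2 wild-type and 3 WT/Y657* fed mice. The gene that passed was Xbp1, at -0.45 (SE 0.11, adjusted p = 0.0216), a mean of 236 ± 36.4 CPM in WT/Y657* against 323 ± 71.9 CPM in wild-type mice (SD, n = 6). Of the WT/Y657* mice, 5 of 6 lay below the wild-type range, and the highest, at 287 CPM, lay within it. Atf6 came next, at -0.24 (SE 0.08, adjusted p = 0.102), with 4 of 6 WT/Y657* mice below the wild-type range, and it passed the test without ALC_MT_858 (-0.27, adjusted p = 0.0461 by edgeR). Creb3l2 was at -0.32 (SE 0.16, adjusted p = 0.301). The other 5 members were between -0.12 and -0.19, with adjusted p from 0.346 to 0.739.

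The Xbp1 difference in fed mice rested on which mice were compared. It was lost without ALC_WT_847, ALC_WT_849, ALC_MT_868 or ALC_MT_869 (log2 difference of -0.33 to -0.43, adjusted p = 0.0551 to 0.0911 by edgeR), and in a fit to the 12 fed libraries alone (-0.46, adjusted p = 0.143). Only the run from ALC_WT_856 to ALC_WT_860 holds both genotypes side by side, and there (2 wild-type, 3 WT/Y657*) the difference was -0.12 in mean log2 CPM (-0.44 over all fed mice). When runs of close numbers entered the fit as a covariate, it was -0.11 (adjusted p = 0.999, edgeR). That fit takes the fed genotype difference from these same 5 mice, so it is not a second comparison. With 2 mice against 3 it cannot decide whether Xbp1 differed. The ranges of marker sums differed too. Those of stellate cells and fibroblasts (5 of 5 tested) summed to 278 to 377 CPM in fed WT/Y657* and 173 to 297 CPM in fed wild-type mice, and those of Kupffer cells (4 of 5 in the table) to 156 to 527 and 162 to 226 CPM. Hepatocyte markers summed to 52100 to 85174 and 73785 to 87549 CPM. Of all the markers tested only Dcn, of stellate cells and fibroblasts, passed the test in fed mice (0.43, adjusted p = 0.0407 by edgeR). In the same comparison 2.37% of all genes passed. The part of these cells in the result was not tested.

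In the fasted state the members differed between genotypes by -0.19 to 0.13 on the log2 scale, and the smallest adjusted p was 0.492. Xbp1 was at -0.10 (95% interval -0.32 to 0.12), and Creb3l3 at -0.06 (-0.27 to 0.15). In the refed state the differences ran from -0.03 to 0.26, with Xbp1 at 0.01 (-0.22 to 0.23) and Creb3l2 at 0.26 (-0.08 to 0.61). None of the 8 passed the test in either state. The unadjusted p in these 2 states was at least 0.117 for each member (edgeR over n = 36 mice), and the tools and settings tried also gave a count of 0 in both.

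Tests of a genotype difference in the responses called 0 of the 8 members, for the fasting response (4.35% of all genes changed), for the refeeding response (2.06%) and for refed against fed mice (0.179%). At an unadjusted p under 0.05, 2 members would have passed for fasting (Atf6 and Xbp1) and 3 for refed against fed (Atf6, Xbp1 and Creb3l2).

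**Figure D4:**
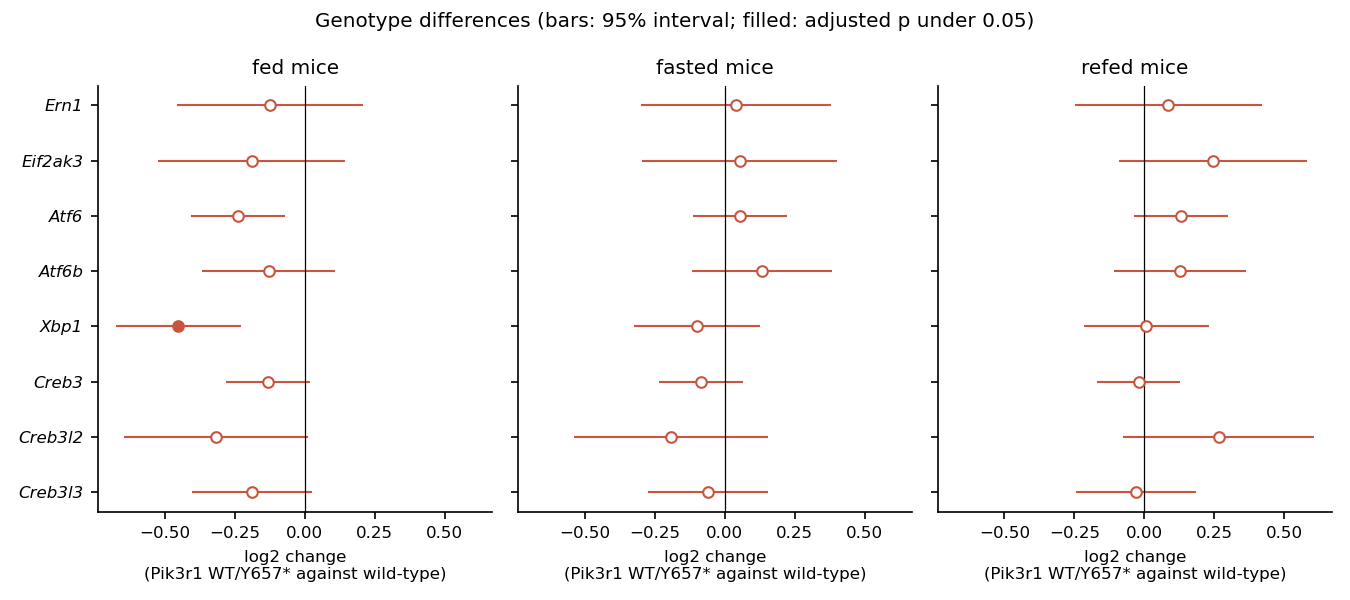
Log2 difference (x axes) between WT/Y657* and wild-type mice for each gene in fed, fasted and refed mice, with bars for the 95% interval and filled points where the adjusted p was under 0.05. All fed points lie left of 0 with Xbp1 at -0.45, and the fasted and refed points scatter about 0.

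The other genes of the pathway were taken from 6 lists of textbook targets and partners. The lists were written with earlier results of these data known, so their shares are descriptions. They hold 136 symbols, with both an older and a newer symbol for some genes. Of these, 130 were in the table and 126 were tested. In fed mice 17 of the 126 differed between genotypes, 17 lower and 0 higher in WT/Y657* mice. The list of ATF6 targets, mostly chaperones and folding enzymes of the endoplasmic reticulum, had 8 of 18 lower (44.4%, against 1.15% of all genes) and a median of -0.51. That of IRE1-XBP1 targets, genes of protein entry and degradation, had 6 of 35 lower and a median of -0.21. The list of PERK-ATF4 targets, genes of amino acid supply and stress, had 0 of 21 called, and that of transcripts known to be cut by IRE1 0 of 8. Of the CREBH targets 1 of 18 was lower (Crp, an acute-phase protein, -0.42, adjusted p = 0.0392), and of the partners and regulators 2 of 26 (Hspa13, -0.37, and Sec16a, -0.27).

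Creld2, a secreted protein of the folding pathway, had the largest of these differences. It was at 55.8 to 171 CPM (median 153) in fed wild-type and 26.1 to 70.1 CPM (median 39.5) in fed WT/Y657* mice, and the groups overlapped. The log2 difference was -1.62 (SE 0.28, adjusted p = 0.00279). Hspa5, which encodes the chaperone BiP that holds the sensors inactive, was at 1263 to 2459 CPM (median 1924) and 865.9 to 1488 CPM (median 1091), a difference of -0.79 (SE 0.20, adjusted p = 0.0318). Dnajc3, a co-chaperone that also restrains PERK, was at 375 to 568 CPM (median 507) and 305 to 397 CPM (median 339), a difference of -0.52 (SE 0.09, adjusted p = 0.00277). Syvn1, a ubiquitin ligase for misfolded proteins, was at -1.02 (SE 0.21, adjusted p = 0.00968) and Hsp90b1, the chaperone GRP94, at -0.69 (SE 0.15, adjusted p = 0.0116). The number of listed genes called depended on single mice: 17 fell to between 5 and 7 without ALC_WT_847, ALC_WT_849, ALC_MT_866, ALC_MT_868 or ALC_MT_869, and to 10 without ALC_WT_856, and rose to 30 without ALC_MT_858. Only the number was followed, so which of the genes named above kept their call is not known. The fit with runs of close mouse numbers as a covariate called 0 of the listed genes. It compares only 2 wild-type with 3 WT/Y657* fed mice, so it has little power to call any.

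Motifs known to bind these factors were looked for in the 250 bases before the start of each gene (RefSeq, GRCm38.p6, both strands), and matches are shown because 6 of the 17 genes that were lower in fed WT/Y657* mice held one, 5 of them ERSE and 1 (Sec24d, a coat protein of vesicles leaving the endoplasmic reticulum, -0.37) UPRE, a site of XBP1. ERSE, the site of ATF6 and XBP1 with NF-Y, was searched as CCAAT followed after any 9 bases by CCACG, and 0.113% of 32851 promoters held it. Of the lists, 7 of 16 ATF6 targets and 3 of 28 IRE1-XBP1 targets with a promoter held it, and 0 of the other 4 lists. The lists were drawn from known targets, so this is a description of their members. The ERSE matches of 4 of these 5 genes are in capitals, with 10 bases on each side, read in the direction of the motif.
Hspa5, chr2:34772025-34772043, plus strand, 65 to 47 bases before the start: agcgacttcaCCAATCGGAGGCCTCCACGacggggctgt
Creld2, chr15:88819520-88819538, on the strand opposite to the gene, 126 to 108 bases before the start: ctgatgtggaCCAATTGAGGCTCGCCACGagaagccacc
Dnajc3, chr14:118937827-118937845, plus strand, 105 to 87 bases before the start: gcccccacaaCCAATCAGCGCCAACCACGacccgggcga
Syvn1, chr19:6046532-6046550, plus strand, 44 to 26 bases before the start: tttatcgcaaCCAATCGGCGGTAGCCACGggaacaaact
The fifth gene, Hsp90b1, held a pair of matches. Of the 10 listed genes with an ERSE match, 5 were lower in fed WT/Y657* mice (1.15% of all genes), and 0 differed in fasted (13.1%) or refed mice (0.0287%). All 10 fell on fasting in wild-type mice (median -1.47, where 17.5% of all genes fell), and 6 fell in WT/Y657* mice (median -0.55, where 17.7% fell). The test of the genotype difference in the fasting response called 5 of the 10, each with a higher log2 change in WT/Y657* mice, against 4.35% of all genes. These 10 genes belong to the lists of ATF6 and IRE1-XBP1 targets, whose own shares are the closer comparison. In fed mice 8 of 18 and 6 of 35 of these lists were lower. On fasting 17 of 18 and 34 of 35 fell in wild-type mice, and 14 of 18 and 26 of 35 in WT/Y657* mice. The test of the responses called 7 of 18 and 8 of 35. Whether genes with a match differed from the others on their list was not tested.

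The members themselves held none of the longer motifs. A promoter was given for 7 of the 8 (Creb3l3 has 2), and none matched ERSE, ERSE-II (ATTGG, any 1 base and CCACG, 0.0304% of promoters), UPRE (TGACGTGG, 0.563%) or CRE (TGACGTCA, 1.55%) in this window. Eif2ak3 matched CCAAT, the NF-Y box that 33.8% of promoters hold, 6 times, and Xbp1 matched ACGT (26.9% of promoters) at 31 to 28 bases before the RefSeq start. The Xbp1 window, on the plus strand at chr11:5520391-5520640, is shown as that of the member with a genotype call, with no letters in capitals since none of the 4 long motifs matched.
Xbp1: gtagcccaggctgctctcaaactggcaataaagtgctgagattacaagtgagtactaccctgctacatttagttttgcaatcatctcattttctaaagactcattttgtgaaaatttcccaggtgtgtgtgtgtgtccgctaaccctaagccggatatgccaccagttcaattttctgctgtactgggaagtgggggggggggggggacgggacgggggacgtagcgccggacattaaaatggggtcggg
No match says only that these letters are absent from this window.

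Most IRE1-XBP1 and ATF6 targets fell on fasting, the direction of Xbp1, Atf6 and Atf6b in wild-type mice. In wild-type mice 34 of 35 IRE1-XBP1 targets fell (median -0.87) and 17 of 18 ATF6 targets (median -1.23), where 17.5% of all genes fell. Spcs3, a subunit of the signal peptidase, fell by 1.13 on the log2 scale (SE 0.06, adjusted p = 5e-16), and Pdia6, a disulfide isomerase, fell by 1.63 (SE 0.14, adjusted p = 3.32e-11). In WT/Y657* mice 26 of 35 (median -0.52) and 14 of 18 (median -0.59) fell, where 17.7% of all genes fell. On refeeding 24 of 35 and 15 of 18 rose in wild-type mice, where 16.5% of all genes rose, and 28 of 35 and 15 of 18 in WT/Y657* mice, where 17.1% rose. Many CREBH targets rose on fasting, as Creb3l3 did: 11 of 18 rose and 2 fell on fasting in wild-type mice, where 14.5% of all genes rose, and 10 rose and 1 fell in WT/Y657* mice, where 15.2% rose. This list holds genes of fasting metabolism, Ppara among them, so its rise does not show what CREBH itself did. Cpt1a, the entry enzyme of mitochondrial fatty acid oxidation, rose from 313 ± 19.7 to 949 ± 75.3 CPM (SD, n = 6 each) in wild-type mice, a log2 change of 1.60 (SE 0.11, adjusted p = 3.85e-14). The PERK-ATF4 targets were mixed, with 5 of 21 higher and 4 lower. Atf5 rose by 1.31 (SE 0.22, adjusted p = 2.67e-05) and Ero1l, an oxidase of the endoplasmic reticulum, fell by 0.47 (SE 0.09, adjusted p = 7.77e-05).

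Some markers of other cell types also changed on fasting, beside the members and the lists. Of all genes, 17.5% fell and 14.5% rose in wild-type mice, and 17.7% fell and 15.2% rose in WT/Y657* mice. The counts of markers are to be read beside these shares. In wild-type mice 2 of 5 stellate cell and fibroblast markers fell (Col3a1, -1.14, adjusted p = 0.000806, and Col1a1, -1.51, adjusted p = 0.00393), and the 5 summed to 173 to 297 CPM in fed and 193 to 252 CPM in fasted mice. Of the endothelial markers 3 of 5 rose (Kdr, 0.35, Clec4g, 0.39, and Stab2, 0.21), and their sums did not overlap, at 208 to 284 CPM fed and 292 to 339 CPM fasted. Sox9 (-0.88) was the only 1 of 5 cholangiocyte markers to change, and Ms4a1 (2.06) the only 1 of 3 lymphocyte markers tested. Of the Kupffer cell markers 0 of 4 were called, and of the neutrophil markers 0 of 2. Among 6 hepatocyte markers Alb rose and Apob, Cps1 and Serpina1c fell. On fasting in WT/Y657* mice 3 of 5 stellate cell and fibroblast markers fell, 0 of 5 endothelial markers were called, and Krt19 of the cholangiocyte markers fell. The part of these cells in the fasting changes was not tested.

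**Figure D5:**
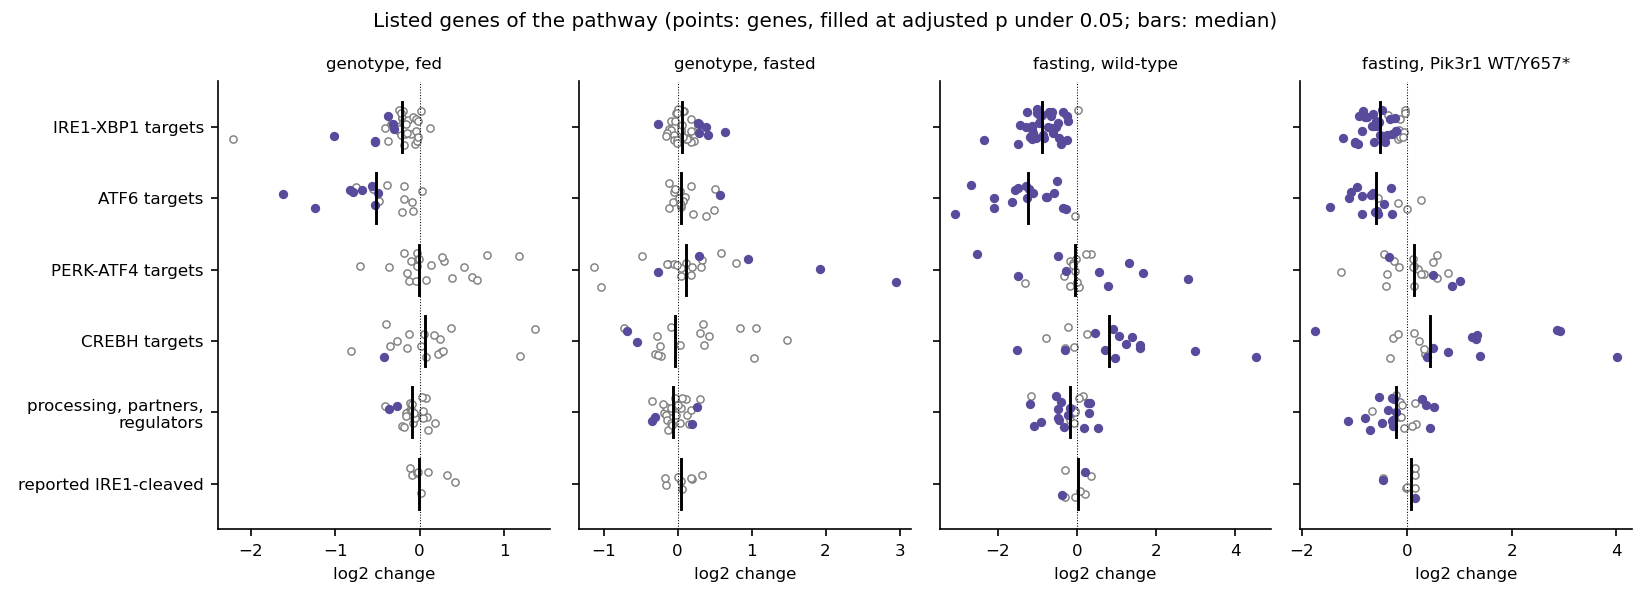
Log2 change (x axes) of each tested gene of the 6 lists (rows) for the genotype difference in fed and fasted mice and for fasting in each genotype, with filled points where the adjusted p was under 0.05 and a bar at each list's median. In fed mice the ATF6 targets have a median of -0.51 and the PERK-ATF4 targets one near 0, and on fasting in wild-type mice the ATF6 targets have a median of -1.23.

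The test of the genotype difference in the fasting response called 20 of the 126, against 4.35% of all genes. Of these, 17 had a higher log2 change in WT/Y657* mice, including 7 of 18 ATF6 targets and 8 of 35 IRE1-XBP1 targets. Creld2 had means of 137 CPM fed and 21.3 CPM fasted in wild-type mice, and 44.5 and 30.6 CPM in WT/Y657* mice, a difference of 2.13 between the responses (SE 0.40, adjusted p = 0.00261). This test uses the same fed mice as the fed comparison of genotypes. The count was 12 or 13 without ALC_WT_847, ALC_WT_849, ALC_MT_857, ALC_MT_868, ONF_MT_826 or ONF_WT_918.

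In fasted mice 19 of the 126 listed genes (15.1%) differed between genotypes, 13 higher and 6 lower, close to the 13.1% of all genes. The genes named here are examples and do not set the lists apart from other genes. Ssr4 and Sec61g, parts of the translocon, were higher in WT/Y657* mice by 0.38 (SE 0.08, adjusted p = 0.000819) and 0.64 (SE 0.14, adjusted p = 0.00198). Of the CREBH targets, Bdh1, which makes the ketone body 3-hydroxybutyrate, was lower, at -0.68 (SE 0.11, adjusted p = 0.00012), as was Ppara, the nuclear receptor of the fasting response, at -0.55 (SE 0.10, adjusted p = 0.000328), while Creb3l3 did not pass the test. The count was 12 without ONF_WT_825, ONF_WT_919, ONF_WT_920 or ONF_MT_806. In refed mice 1 of the 126 listed genes differed, where 0.0287% of all genes did. It was Ddit3, the stress factor CHOP, at 5.31 to 8.54 CPM (median 6.01) in wild-type and 7.22 to 30.2 CPM (median 11.3) in WT/Y657* mice, a difference of 1.37 (SE 0.24, adjusted p = 0.0171). The count was 0 without RF6_WT_815, RF6_WT_828, RF6_WT_896, RF6_WT_900, RF6_WT_901, RF6_MT_810 or RF6_MT_898, and 2 without RF6_MT_817 or RF6_MT_899.

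Within groups, some of the members varied together and others did not. Over the 36 mice, after each group's mean was taken out, Pearson's r was positive for 19 of 28 pairs of members and ran from -0.52 (Ern1 and Creb3) to 0.58 (Xbp1 and Creb3). All 10 pairs among Eif2ak3, Atf6, Atf6b, Xbp1 and Creb3l2, a set put together after the values were seen, had r between 0.27 and 0.53. Creb3l3 had a positive r with 1 of the other 7 members, and Ern1 with 4. Among 12600 genes of mean CPM 1 or more, those most like Xbp1 were Hspa5 (r = 0.78) and Creld2 (r = 0.76), and those most like Creb3l3 were Ephx2 and Decr1 (r = 0.85 each). Ern1 was most like Prkaa2 (r = 0.88) and Kidins220 (r = 0.83), Eif2ak3 like Txndc11 and Cog3 (r = 0.79 and 0.76), and Atf6 like Ptpn11 and Atp2a2 (r = 0.72 and 0.70). For Atf6b they were Srp19 and Xkr6 (r = 0.69 each), for Creb3 Supt5h and Hspb8 (r = 0.73 and 0.72), and for Creb3l2 Entpd7 and Atf7ip (r = 0.70 and 0.69). These are descriptions over n = 36 mice, whose values share libraries, scaling and runs of mouse numbers, and each was picked as one of the highest of that many correlations.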

How the data were processed

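Liver RNA of 36 mice was read by stranded total RNA libraries, and the authors deposited estimated counts per gene without normalization. Their notes name Cuffdiff, SAMtools, featureCounts, edgeR and the build mm9. However, 94.9% of the genes in the table were found by identifier in the GENCODE annotation of GRCm38. Of these, 99.7% had a locus that overlaps the same gene in GRCm38 and 44.2% had the same start and end, so coordinates are those of GRCm38. Versions and the strand setting of the counting are not given in the sources used here. Counts were rounded (3.64% of those above 0 were not whole). Of 36 further columns, a model's fitted values, none was used: within a group they differ by library scaling alone.

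edgeR 4.0.16 (R 4.3.3) was run on all 36 libraries, with filterByExpr, TMM scaling and a robust glmQLFit that gave each group its own mean. The 12 comparisons were tested by glmQLFTest, two-sided, with Benjamini-Hochberg adjustment and a threshold of 0.05. The SE is the log2 change over the root of F, and 95% intervals use a t value with 30 degrees of freedom. Log2 CPM had a prior count of 2. The test was checked on simulated counts.

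The members, the target lists and the rule for named genes (all members, and from each list the genes with the smallest p) were chosen with earlier results of these data known. Hspa5 and the promoter search of the lists were added after their values were seen. Alternatives used DESeq2 1.42.0, limma-voom (limma 3.58.1), edgeR's likelihood ratio test, other scaling, filters and samples, series or runs of mouse numbers, and leaving out each mouse. The authors name the wild-type mice of the fed and fasted groups as littermates, but the litter of each mouse is not given. Nothing says that mice of a group came from separate litters. The p-values treat each mouse as independent and set a difference against the variation among these mice.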

Additional observations from a re-analysis of the deposited data

Results flagged for a closer look

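Among the 48 sets of 6 mice (8 members in 6 groups), 1 held a mouse far from the rest, and chance alone gives about 1 in 20. It was Eif2ak3 in fasted WT/Y657* mice, where ONF_MT_827 was at 25.7 CPM and the nearest mouse at 17.2 CPM, a gap of 0.657 of the whole range.

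None of the members differed between genotypes in a response, where 4.35% of all genes did for fasting, 2.06% for refeeding and 0.179% for refed against fed. Of the genes named from the pathway lists 11 did, in 15 tests (edgeR, adjusted p under 0.05 over all genes). These genes were named for a small p between genotypes in fed or fasted mice, which enter the same tests. Their number therefore follows from that choice and cannot be set against the members. For the fasting response the differences, WT/Y657* minus wild-type on the log2 scale, were 2.13 for Creld2, 1.29 for Syvn1, 1.24 for Manf, 0.81 for Sec61g, 0.76 for Herpud1, 0.71 for Hsp90b1, 0.70 for Dnajc3 and 0.43 for Ssr4. Those of Bdh1 and Tmbim6 were -0.73 and -0.45. For the refeeding response they were -0.72 for Sec61g and -1.29 for Slc7a11, an amino acid exchanger. The level of Slc7a11 was low, with group means from 1.21 to 2.35 CPM and a lowest count of 11. The number of listed genes called for the refeeding response fell from 2 to 0 or 1 when any of 19 fasted or refed mice was left out. These were all but ONF_WT_807, ONF_MT_921, ONF_MT_922, RF6_MT_897 and RF6_MT_899. The number was 0 with no filter or with library size alone. Only the number was followed, so which gene made up a count of 1 is not known. For refed against fed mice the differences were 2.02 for Creld2, 1.54 for Syvn1 and 0.64 for Dnajc3. These 3 calls became 0 without ALC_WT_847, ALC_WT_849, ALC_MT_868, ALC_MT_869, RF6_WT_901 or RF6_MT_898, and 6 to 8 listed genes were called without ALC_WT_860, ALC_MT_858 or ALC_MT_859. The first and last of these comparisons share the fed mice.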

How the results depend on the processing

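No paired analysis was possible because each mouse number occurs once and the litter of a mouse is not given. Under the other settings, single members kept their side of the threshold in 874 cases, lost a call in 11 and gained one in 3. With 1 mouse left out these cases numbered 1407, 29 and 4, and no called change turned its direction. The exceptions by other settings were Ern1 in refed against fed WT/Y657* mice (adjusted p = 0.0502 by limma-voom, 0.0566 with library size alone, 0.0533 with no filter, 0.0999 with the compared libraries alone), Ern1 on wild-type refeeding with no filter (0.0824), Eif2ak3 on fasting in WT/Y657* mice (0.0582 with no filter, 0.0557 with the compared libraries alone, 0.0710 with the mouse number series), Eif2ak3 on refeeding with the compared libraries alone (0.0126 in wild-type, 0.0664 in WT/Y657* mice), and Creb3l3 in refed against fed wild-type mice (0.0158 with library size alone, 0.0349 with the compared libraries alone), beside Xbp1 in fed mice.

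The 1 member called in fed mice became 0 with the compared libraries alone and 0 with runs of mouse numbers, and 0 to 2 with 1 mouse left out. The 17 listed genes called there became 10 with no filter, 2 with the compared libraries alone and 0 with runs of mouse numbers, and 5 to 30 with 1 mouse left out. With runs of mouse numbers the fed genotype difference comes from 2 wild-type and 3 WT/Y657* mice alone. The 19 called in fasted mice became 11 with no filter, and 12 to 20 with 1 mouse left out. The 1 called in refed mice became 2 by DESeq2 and by the likelihood ratio test, 0 by limma-voom and with the compared libraries alone, and 0 to 2 with 1 mouse left out. For the genotype difference in the fasting response, 20 became 12 with no filter and 12 to 23 with 1 mouse left out. For the refeeding response, 2 became 4 by DESeq2, 1 by limma-voom, 0 with library size alone and 0 with no filter, and 0 to 3 with 1 mouse left out. For refed against fed mice, 3 became 14 by DESeq2, 6 by the likelihood ratio test, 8 with the compared libraries alone, and 0 to 8 with 1 mouse left out. Members called in refed against fed WT/Y657* mice numbered 2 to 4 with 1 mouse left out. The causes were not tested.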
